A study of Sus scrofa with 6 samples.

Results

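The PEG10-SGCE domain is a cluster of imprinted genes and their neighbours on pig chromosome 9. Its 8 members are PEG10, SGCE, CASD1, PPP1R9A, PON2, ASB4, TFPI2 and CALCR. They were chosen by name for the known imprinting of this domain in mammals, with earlier results of these data known. By their Ensembl identifiers, 8 of 8 were found among the 1780 genes of the count table. The series examined maternal and paternal expression by RNA-seq of 6 whole pig embryos at embryonic day 21, all of a Landrace x Yorkshire x Duroc cross. The 3 control embryos, labelled untreated, carried a maternal and a paternal genome, and their conception is not described here. The 3 parthenotes came from oocytes activated by 2 direct-current pulses, each lasting 30 µs at 1.2 kV/cm, with no sperm, so their chromosomes were all maternal. After activation, 200 parthenogenetic embryos went into the oviducts of each of 2 surrogate gilts of the same cross. Conception, dam and handling also differed or may have differed between the groups, and these cannot be told apart from the absence of paternal chromosomes. Nothing in the labels ties embryos to a litter, so p-values measure only the spread between these embryos.

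An imprinted gene is transcribed mainly from the copy inherited from 1 parent, because a mark set in the egg or the sperm is kept after fertilisation. PEG10 and SGCE lie head to head and share a promoter region that is methylated on the maternal chromosome in mammals studied, so that both are transcribed from the paternal copy. Several genes around them are known as maternally expressed in some tissues, above all in the placenta and brain of the mouse. An embryo with maternal chromosomes only would lack the active copy of a paternally expressed gene and carry 2 active copies of a maternally expressed one.

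On the Sscrofa11.1 assembly the members span 73279874 to 75337619 of chromosome 9, or 2.06 Mb. In map order these are CALCR at 73279874 to 73403516, TFPI2 at 73684236 to 73694663, CASD1 at 74276533 to 74347608 and SGCE at 74402714 to 74473904. PEG10 follows after a gap of 216 bp at 74474121 to 74486983, then PPP1R9A at 74635285 to 74944050, PON2 at 75027270 to 75051441 and ASB4 at 75110367 to 75337619. Libraries were made with a kit that does not keep the strand of a read, so reads from overlapping genes cannot be told apart. TFPI2 lies wholly inside the annotated span of GNGT1, PDK4 lies wholly inside that of ASB4, and the spans of PPP1R9A and PON1 overlap by 405 bp. The long noncoding RNA LOC106504960 also lies wholly inside ASB4, over 71985 bp. Another, LOC106504956, overlaps CASD1 by 2671 bp, and the microRNA MIR489 lies inside CALCR. These RNAs were not in the count table under their symbols, so their reads were not measured. No annotated gene overlaps SGCE, PEG10 or PON2 in the RefSeq table.

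Each library held 1193714 to 1484193 reads in the genes analysed here, which are those of chromosome 9, and levels are given as CPM, counts per 1000000 of these reads after TMM scaling. A floor of 3 reads corresponded to 2.02 to 2.36 CPM. The libraries numbered 1 stood apart from the others of their group, with a chi-square per degree of freedom of 141 and 143 for control 1 against 6.98 between control 2 and 3, and of 61.0 and 52.8 for parthenote 1 against 21.1 between parthenote 2 and 3. The most abundant gene, which has no symbol, took 20.8% of these reads in control 1 and 8.29% and 8.47% in control 2 and 3. It took 19.1%, 15.4% and 18.0% in parthenote 1, 2 and 3. The part of this 1 gene in the chi-squares was not tested. Of the tissue marker lists, the neural genes NCAM1, FEZ1, NRCAM and AMPH summed to 6932 to 8132 CPM in controls and 9252 to 11007 CPM in parthenotes, and 3 of these 4, FEZ1, NRCAM and AMPH, rose. In edgeR the calls were lost without control 2 or 3 for FEZ1 (adjusted p of 0.0761 and 0.0699), and without control 2, parthenote 2 or parthenote 3 for NRCAM and AMPH, with control 3 besides for AMPH (adjusted p from 0.0710 to 0.131). The 3 yolk sac and liver genes measured, APOA1, APOC3 and APOA4, summed to 29039 to 33808 CPM in controls and 26128 to 51368 CPM in parthenotes. Of these 3, 1 rose, the apolipoprotein gene APOC3, by 1.08 ± 0.20 on the log2 scale (edgeR adjusted p = 0.0178), a call lost without control 1, 2 or 3 (adjusted p from 0.0567 to 0.0730). Its level was 2013, 1631 and 2107 CPM in control 1, 2 and 3 and 5383, 3462 and 3332 CPM in parthenote 1, 2 and 3. The part of the neural and the yolk sac and liver markers in the members' values was not tested. Skeletal muscle and endothelial markers were present in all libraries. The 1 measured muscle gene, MYOG, was at 1069 to 1133 CPM in controls and 1171 to 1262 CPM in parthenotes (edgeR adjusted p = 0.290). The 3 endothelial genes summed to 3437 to 3657 CPM in controls and 3321 to 3572 CPM in parthenotes. Of these 3, 0 passed, with 1 above 0 and 2 below, the lowest being ESAM at -0.42 ± 0.11 on the log2 scale (edgeR adjusted p = 0.0677). White cell markers were at or near 0, with CD3E at 0 to 3 reads and CD3D at 0. Of the 2 uterine markers in the table, PGR had 1 to 3 reads in controls and 0 in parthenotes, and MMP7 had 0 to 1 in controls and 1 to 6 in parthenotes. Of 12 trophoblast and extraembryonic markers 1 was measured here, PLET1, at 9.46 to 15.7 CPM in controls and 0.673 to 3.54 CPM in parthenotes. HBB, the 1 red cell marker measured, was at 873 to 2065 CPM in controls and 102 to 575 CPM in parthenotes. Its log2 fold change of -2.30 ± 0.78 did not pass in edgeR (adjusted p = 0.189).

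The first comparison asked whether the paternally expressed pair was lower without a paternal genome. PEG10, a domesticated retrotransposon gene whose product is made partly by ribosomal frameshifting and which the mouse needs to form a placenta, was abundant in controls and left at low levels in parthenotes. It had 25305, 32101 and 34078 CPM in control 1, 2 and 3, and 27.5, 23.4 and 10.1 CPM in parthenote 1, 2 and 3. The groups were far apart, and the highest parthenote lay 919-fold below the lowest control. PEG10 took 2.30% to 3.55% of the chromosome 9 gene reads of a control library, with control 1 the lowest. In a parthenote library it took 0.00101% to 0.00263% of them. Its share of all reads was not measured here.

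SGCE encodes epsilon-sarcoglycan, a membrane glycoprotein whose loss from the paternal copy causes the movement disorder myoclonus-dystonia in humans. It had 1104, 1037 and 1078 CPM in control 1, 2 and 3, and 42.1, 9.92 and 27.6 CPM in parthenote 1, 2 and 3. Controls were close to one another, with an SD of 3.17% of the mean, while the low parthenote values spread with an SD of 60.7% of theirs. The groups did not overlap, and the highest parthenote lay 24.6-fold below the lowest control.

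**Figure D1:**
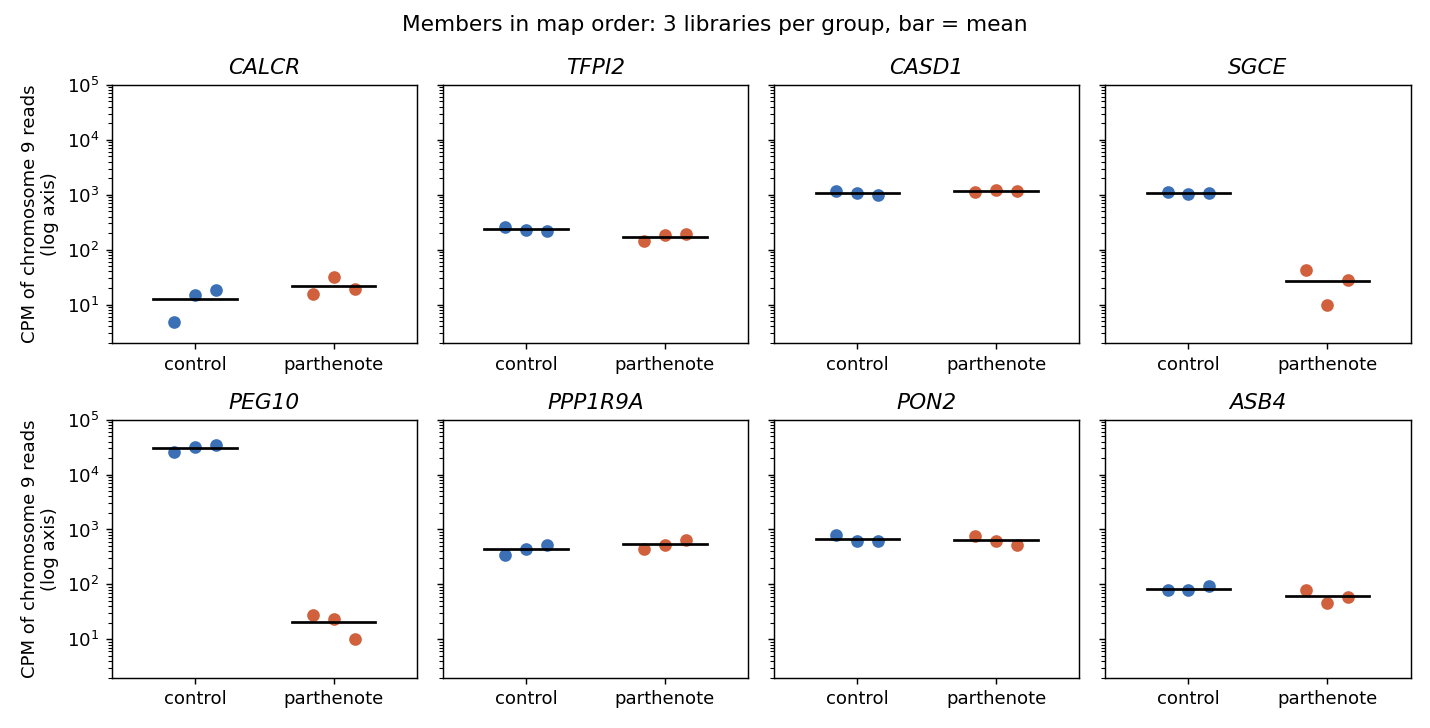
Levels of the 8 members in map order, in CPM of chromosome 9 reads on a log axis, with 1 point per library, 3 libraries per group and a bar at the mean. PEG10 and SGCE sit far lower in parthenotes, and the other members lie at like levels in both groups, with CALCR the most spread, from 4.73 to 31.2 CPM.

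In edgeR's quasi-likelihood test over 807 genes PEG10 fell by 10.55 ± 0.39 on the log2 scale (SE, n = 3 each) and SGCE fell by 5.35 ± 0.34. The mean level went from 30495 ± 4602 to 20.3 ± 9.11 CPM for PEG10 and from 1073 ± 34.0 to 26.5 ± 16.1 CPM for SGCE (SD), or 1503-fold and 40.7-fold lower. In edgeR, PEG10 had an adjusted p of 1.76e-06 and SGCE one of 3.34e-05, and their values were the lowest and the second lowest fold changes of the 807 genes, followed by a log2 fold change of -4.12 for a gene without a symbol. Of the 8 members 2 were lower at an adjusted p under 0.05, where 3.59% of all tested genes were, and 0 were higher, where 1.61% were (5.20% in either direction). The members with an unadjusted p under 0.05 in edgeR were 3, PEG10, SGCE and TFPI2, each of them lower, where 21.7% of all tested genes had one. DESeq2 and limma-voom also called 0 members higher. Without both libraries numbered 1 the log2 fold change was -10.96 ± 0.26 for PEG10 and -5.80 ± 0.30 for SGCE. PLET1, the measured trophoblast marker, fell with them, by 2.70 ± 0.58 on the log2 scale (edgeR adjusted p = 0.0264). It had only 12 to 20 reads in controls and 1 to 5 in parthenotes, the lowest below the floor of 3. The part of PLET1 in the fall of PEG10 was not tested. The call of PLET1 in edgeR did not hold with parthenote 1 or 3 left out, nor with control 2 or 3 left out (adjusted p from 0.0588 to 0.118). In whole embryos, fewer cells of a type and less RNA per cell cannot be told apart.

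Reads of both genes remained above the floor of 3 in each parthenote. PEG10 had 36, 33 and 15 reads in parthenote 1, 2 and 3, or 0.0903%, 0.0767% and 0.0331% of the mean level in controls. The exact 95% counting intervals were 0.0632% to 0.125%, 0.0528% to 0.108% and 0.0185% to 0.0546%, and those of parthenote 1 and 3 did not overlap. SGCE had 55, 14 and 41 reads, or 3.92% (2.95% to 5.10%), 0.925% (0.506% to 1.55%) and 2.57% (1.85% to 3.49%) of the control mean. SGCE was thus left at a larger share than PEG10 in 3 of 3 parthenotes. The order of the parthenotes differed between the genes, since parthenote 2 had the least SGCE and parthenote 3 the least PEG10. All these intervals cover counting error only and treat each read as independent. Without molecular identifiers 2 reads may come from 1 molecule, so the intervals may be too narrow.

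The ratio of PEG10 to SGCE reads within a library needs no scaling. It was 22.9, 31.0 and 31.6 PEG10 reads per SGCE read in control 1, 2 and 3, and 0.655, 2.36 and 0.366 in the parthenotes of the same numbers. Each parthenote was below each control. The mean was 28.5 ± 4.84 in controls and 1.13 ± 1.08 in parthenotes (SD, n = 3 each), and the log2 ratio was lower by a mean difference of -5.09. A two-sided exact permutation test gave p = 0.1, the smallest that 3 against 3 libraries allow. PEG10 was thus reduced by a larger factor than its neighbour in each of these 3 parthenotes. The reads left were few for both, 36, 33 and 15 for PEG10 and 55, 14 and 41 for SGCE in parthenote 1, 2 and 3. The larger factor thus rests largely on the higher PEG10 counts of controls, and the source of the reads left was not tested.

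**Figure D2:**
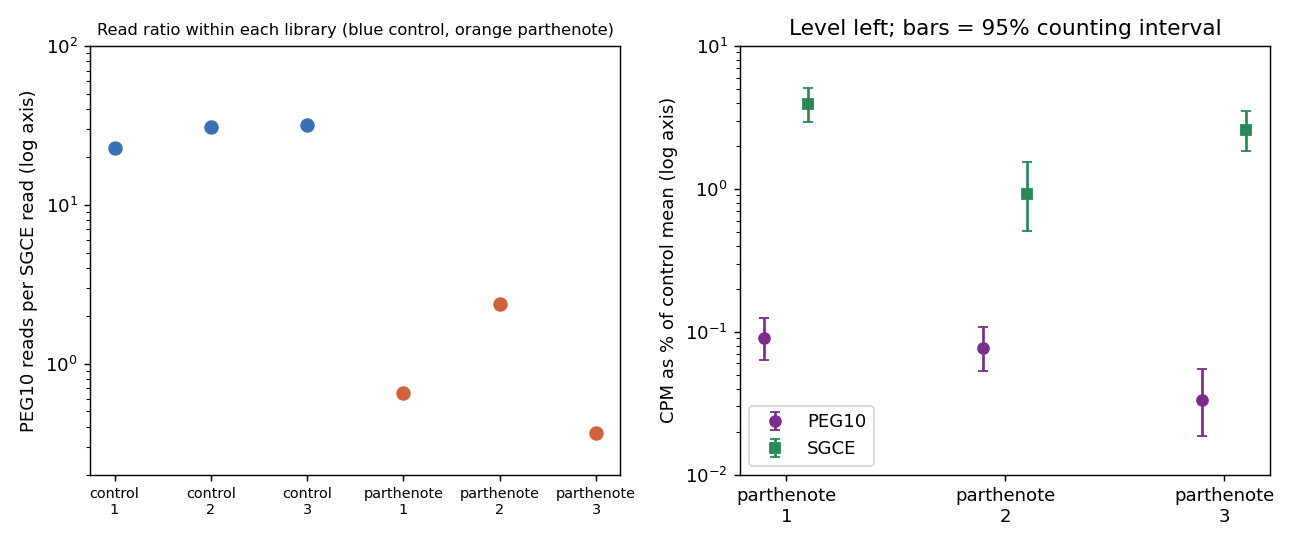
Left, PEG10 reads per SGCE read in each library on a log axis, 22.9 to 31.6 in controls and 0.366 to 2.36 in parthenotes. Right, the level left in each parthenote as a percent of the control mean on a log axis with exact 95% counting intervals, where SGCE lies above PEG10 in each of the 3.

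The second comparison asked whether the members known as maternally expressed in some mammalian tissues were higher with 2 maternal genomes. PPP1R9A, PON2, ASB4, TFPI2 and CALCR did not pass the test in either direction, and CASD1, whose imprinting is less settled, did not either. Over these 6 members the median log2 fold change was 0.00, beside 0.02 for all 807 genes, with 3 above 0 and 3 below. With PEG10 and SGCE added, the median of the 8 was -0.26, with 3 above 0 and 5 below.

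PPP1R9A encodes neurabin, which binds actin and brings protein phosphatase 1 to synapses, and is known as maternally expressed in the mouse placenta. It had 348, 446 and 530 CPM in control 1, 2 and 3, and 444, 532 and 653 CPM in parthenote 1, 2 and 3. The groups overlapped, since parthenote 1 lay below control 2 and 3. The log2 fold change was 0.30 ± 0.19 (SE), with a 95% interval of -0.12 to 0.72 (edgeR adjusted p = 0.402). With a library left out it ranged from 0.13 without parthenote 3 and 0.16 without control 1 to 0.45 without control 3. Between embryos of the same replicate number, the parthenote was higher in 3 of 3 pairs, by 0.35, 0.26 and 0.30 on the log2 scale. The labels do not give this pairing. With the replicate number as a block the interval narrowed to 0.07 to 0.53, and the gene still did not pass (unadjusted p = 0.0167 and adjusted p = 0.112 in edgeR). Of the 4 neural markers 3 rose in these parthenotes, as given above, and their part in the value of PPP1R9A was not tested.

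CALCR encodes the calcitonin receptor, which couples to G proteins and is known as maternally expressed in mouse brain. It was the most thinly read member, with 6, 19 and 24 reads in control 1, 2 and 3, and 20, 44 and 29 reads in parthenote 1, 2 and 3. These counts correspond to 4.73, 14.9 and 18.1 CPM and to 15.3, 31.2 and 19.5 CPM. Control 1 was low and parthenote 2 high, and the groups overlapped through control 3 and parthenote 1. The log2 fold change was 0.80 ± 0.48 with a 95% interval of -0.29 to 1.89 (edgeR adjusted p = 0.389), so neither no change nor a 2-fold rise lay outside it. With a library left out it ranged from 0.41 without control 1 and 0.47 without parthenote 2 to 1.16 without control 3, and it was 0.60 ± 0.37 without both libraries numbered 1. Between embryos of the same number, the parthenote was higher in 3 of 3 pairs, by 1.69, 1.07 and 0.11 on the log2 scale. The labels do not pair these embryos.

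TFPI2 encodes a Kunitz-type inhibitor of serine proteases that is secreted into the extracellular matrix and is known as maternally expressed in placenta. It had 258, 225 and 222 CPM in control 1, 2 and 3, and 146, 184 and 190 CPM in parthenote 1, 2 and 3. Each parthenote lay below each control, which was so for 3 of the 8 members and for 14.3% of all tested genes. In one direction or the other, the groups did not overlap for 28.0% of all tested genes. The log2 fold change was -0.44 ± 0.15 with a 95% interval of -0.77 to -0.11, and the adjusted p of 0.136 in edgeR missed the threshold (unadjusted p = 0.0147, where 21.7% of all tested genes had one under 0.05). With a library left out the value ranged from -0.53 to -0.33, and without both libraries numbered 1 it was -0.26 ± 0.11. GNGT1, whose span holds TFPI2, had 2 to 7 reads per library against 191 to 328 for TFPI2, and was not tested.

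ASB4 encodes a substrate adaptor of a ubiquitin ligase, and is known as maternally expressed in the mouse embryo. It had 78.0, 77.7 and 92.1 CPM in control 1, 2 and 3, and 80.3, 46.1 and 58.5 CPM in parthenote 1, 2 and 3. Parthenote 1 lay among the controls, while parthenote 2 and 3 were below them. The log2 fold change was -0.43 ± 0.22 with a 95% interval of -0.93 to 0.08 (edgeR adjusted p = 0.320). It was -0.25 without parthenote 2 (adjusted p = 0.628) and -0.66 without parthenote 1 (adjusted p = 0.114), the ends of its range with a library left out, and -0.70 ± 0.21 without both libraries numbered 1 (adjusted p = 0.0976 in edgeR). PDK4, a kinase of pyruvate dehydrogenase that lies inside the span of ASB4, was opposite in sign, at 0.46 ± 0.12 on the log2 scale (edgeR adjusted p = 0.0698).

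PON2 encodes an intracellular lactonase that limits oxidative damage, and is known as maternally expressed in the mouse placenta. It had 784, 621 and 615 CPM in control 1, 2 and 3, and 769, 607 and 530 CPM in parthenote 1, 2 and 3. The groups overlapped, and the libraries numbered 1 were the highest of both groups. The log2 fold change was -0.09 ± 0.16 with a 95% interval of -0.44 to 0.27 (edgeR adjusted p = 0.796). Of the other paraoxonase genes between PPP1R9A and PON2, PON1 had a log2 fold change of 0.07 ± 0.26 and PON3 had 1 read over all libraries, so 0 of the 2 tested genes of this family passed.

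CASD1, which encodes an enzyme that adds acetyl groups to sialic acids, lies 55.1 kb from SGCE on the side away from PEG10. It had 1177, 1060 and 997 CPM in control 1, 2 and 3, and 1100, 1200 and 1147 CPM in parthenote 1, 2 and 3. The groups overlapped, with control 1 above 2 of the 3 parthenotes. The log2 fold change was 0.09 ± 0.09 with a 95% interval of -0.11 to 0.29 (edgeR adjusted p = 0.578). The nearest member on the PEG10 side, PPP1R9A, starts 148 kb from PEG10.

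**Figure D3:**
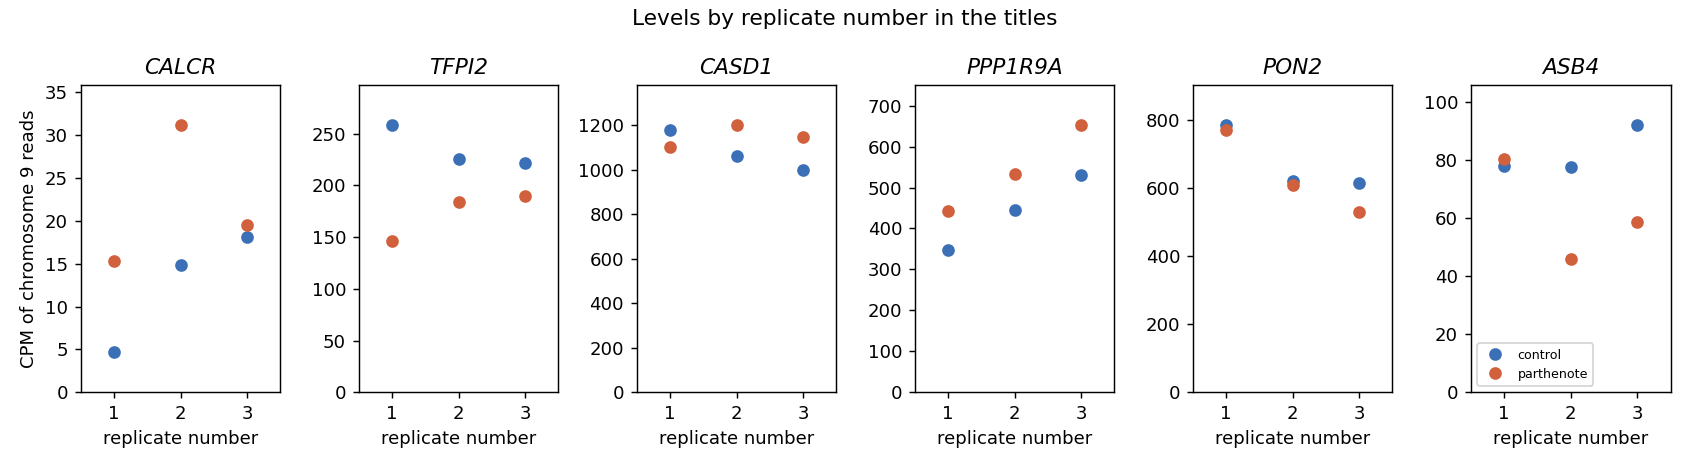
CPM of the 6 members other than SGCE and PEG10 against the replicate number in the titles, with blue points for controls and orange points for parthenotes. PPP1R9A and CALCR are higher in the parthenote at each number, TFPI2 and PON2 are lower at each, and ASB4 and CASD1 go both ways.

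The intervals show which sizes of change these libraries could have missed. For PPP1R9A, PON2, ASB4, TFPI2 and CASD1 the 95% interval ended at 0.72 or lower on the log2 scale, below the 1 that stands for a 2-fold rise. Counting PEG10 and SGCE, the interval of 7 of 8 members ended below a 2-fold rise, as did that of 88.7% of all tested genes. CALCR was the exception, on 142 reads in all. Rises within those bounds could have been missed at this depth and number of embryos.

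**Figure D4:**
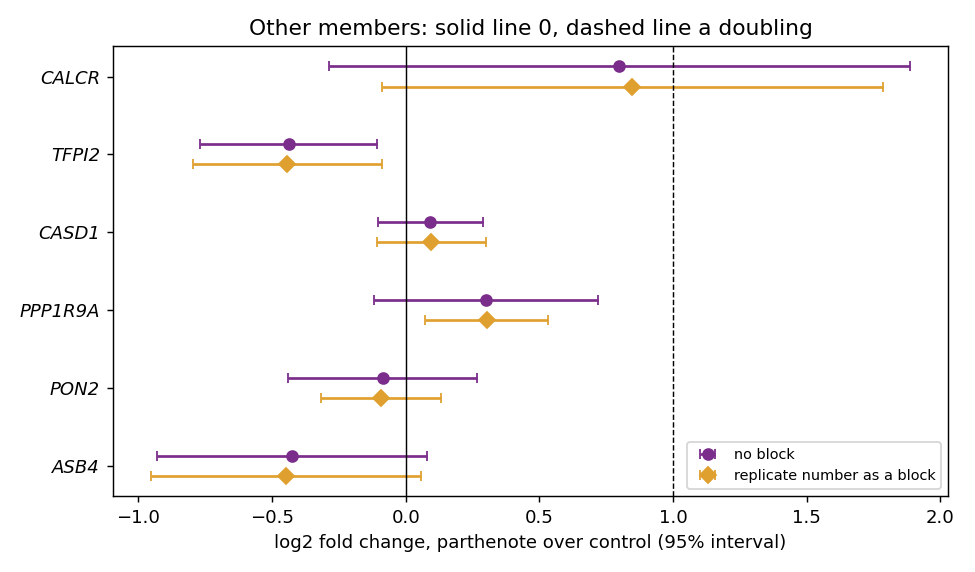
Log2 fold changes with 95% intervals of the 6 members other than PEG10 and SGCE, from edgeR without a block (circles) and with the replicate number as a block (diamonds), with a solid line at 0 and a dashed line at 1, a 2-fold rise. The CALCR interval alone crosses the dashed line, in both fits. With the block, a pairing that the labels do not give, the PPP1R9A interval lies above 0, but the gene did not pass (edgeR adjusted p = 0.112).

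Genes around the members were followed as a list of 20 from the order known on the human chromosome, of which 17 were in the table and 14 were tested. Of these 14, 0 fell, where 3.59% of all tested genes did, and 1 rose, where 1.61% did. The gene that rose was ASNS, which encodes asparagine synthetase and lies 2831 kb from PEG10. ASNS had 958, 879 and 972 CPM in control 1, 2 and 3 and 2242, 2381 and 1975 CPM in parthenote 1, 2 and 3, a log2 fold change of 1.23 ± 0.10 (edgeR adjusted p = 4.90e-05). Over the 14 genes the log2 fold changes had a median of 0.16, with 10 above 0 and 4 below. The groups did not overlap for 6 of the 14, against 28.0% of all tested genes.

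COL1A2, a collagen I chain and the gene of the list with the most reads, ends 192 kb from SGCE, and its log2 fold change was 0.00 ± 0.12. On the other side, PON1 starts 457 kb from PEG10. The flanking genes with an unadjusted p under 0.05 in edgeR were 6 of 14, ASNS among them, where 21.7% of all tested genes had one. CDK6, a cell cycle kinase, had a log2 fold change of 0.52 ± 0.15, DLX5 and DLX6, homeobox genes of limb and jaw, had 0.46 ± 0.13 and 0.34 ± 0.13, and SLC25A13, the mitochondrial aspartate-glutamate carrier, had -0.43 ± 0.13. Their adjusted p in edgeR was 0.0946 for CDK6, 0.0946 for DLX5, 0.162 for DLX6 and 0.108 for SLC25A13, and that of PDK4 was given above. With the replicate number as a block in edgeR, a pairing that the labels do not give, CDK6 (adjusted p = 0.0253) and SLC25A13 (adjusted p = 0.0290) passed as well. That made 3 genes of the list where 6.82% of all tested genes passed in that fit.

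**Figure D5:**
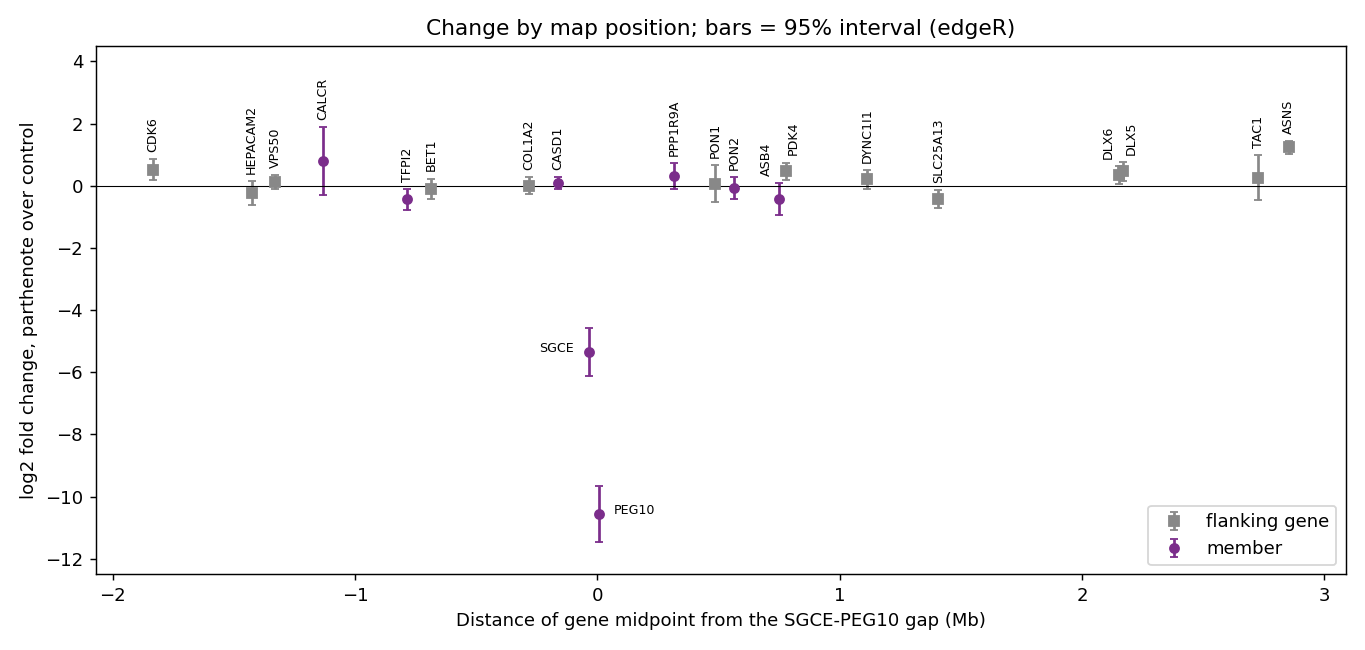
Log2 fold change of parthenote over control with 95% intervals, against the distance in Mb of each gene's midpoint from the gap between SGCE and PEG10, for 8 members (circles) and the 13 tested flanking genes with a position (squares). SGCE at -5.35 and PEG10 at -10.55 stand apart from their neighbours on both sides, which lie between -0.44 and 1.23.

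Genes whose level over the 6 libraries was most like the mean of PEG10 and SGCE included KCNJ1, ST14, SCIN and EDEM3, with a Pearson r of 0.993, 0.988, 0.985 and 0.976 on log2(CPM + 1). The measure mostly records the difference between groups of 3 and is a description. KCNJ1, a potassium channel of renal tubules, went from 567 ± 26.7 to 80.9 ± 11.7 CPM (SD, n = 3 each). ST14, an epithelial membrane protease, went from 398 ± 40.9 to 151 ± 4.95 CPM, and SCIN, which encodes the actin-severing scinderin, from 471 ± 69.8 to 119 ± 7.96 CPM. EDEM3, of endoplasmic reticulum protein degradation, had 1807 ± 30.5 and 1651 ± 1.17 CPM. KCNJ1 differed 6.99-fold against 1503-fold for PEG10.

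The other lists fixed for the pathway held few genes of this chromosome and were hardly measured here. Of 12 genes of the sarcoglycan and dystrophin complex 1 was measured here, SGCE itself. Of 10 genes that keep imprints 2 were measured and tested, EED and EZH2 of the polycomb repressor. Of these 0 passed in edgeR, 0 had an unadjusted p under 0.05, and the median log2 fold change was -0.06.

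The normalized values that the authors deposited for each sample were read for the members too. On that scale PEG10 had 33821, 42511 and 45258 in the controls numbered 1 to 3, against 36.6, 31.7 and 13.7 in the parthenotes. SGCE had 1476, 1372 and 1433 in controls, against 56.0, 13.4 and 37.6. Both orders of the parthenotes were those of the counts. In limma on log2 of these values plus 1, the value was -10.58 ± 0.34 for PEG10 (adjusted p = 5.99e-06) and -5.49 ± 0.46 for SGCE (adjusted p = 4.55e-04), and 0 of the other 6 members passed.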

How the data were processed

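RNA of 3 control and 3 parthenogenetic whole embryos was sequenced from TruSeq RNA v2 libraries, per the labels' protocols. The submitters' processing notes name HISAT2 2.1.0, SAMtools 1.9 and Sscrofa11.1, and no counting tool is given in the sources used here. Raw counts per gene stand in a table the authors deposited. The authors' deposited file for each sample holds normalized signal values, whose making is not described. For genes with at least 10 reads, 84.4% to 91.0% of the values in a library lay within 0.1% of 1 common multiple of the deposited count, and the others lay above it, by up to 21.6%. Symbols came from a table of Ensembl identifiers, and 687 of 688 symbols that RefSeq's Sscrofa11.1 table placed were on chromosome 9, so other chromosomes were not analysed here. Gene lengths were not used here, so levels are not compared between genes.

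Counts were tested in edgeR 4.0.16 (R 4.3.3) with TMM scaling, filterByExpr (minimum count 10, minimum total 15), a robust quasi-likelihood fit over 807 genes and Benjamini-Hochberg adjustment at 0.05. The SE is the log2 fold change divided by the root of the F statistic. DESeq2 1.42.0 and limma 3.58.1 were alternatives, the latter also on log2(value + 1) of normalized values with a mean of at least 10. The test was tried on simulated data. All 8 members passed the filter. Named flanking genes were those with an unadjusted p under 0.05, the nearest on each side and the most read, and likeness took the 5 highest correlations, of which 1 is not reported here. Members, lists and tests were chosen with earlier results of these data known. Same-number samples deviated together (r of 0.349, 0.268 and 0.144 over 807 genes), against -0.283 to 0.130 for samples of different numbers. Control 3 with parthenote 2, at 0.130, was near the lowest same-number value. Deviations from a group mean sum to 0, so these r depend on one another and cannot establish pairs. The blocked fit took the numbers as pairs, a pairing that the labels do not give and these r do not establish.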

Additional observations from a re-analysis of the deposited data

How the results depend on the processing

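PEG10 and SGCE fell past the threshold in each of 19 alternatives, with log2 fold changes of -10.96 to -10.24 and -5.82 to -4.95, and 0 of the other 6 members passed in any. PON2, close to 0, changed sign without control 1 (0.039) and without parthenote 3 (0.014), within a range of -0.24 to 0.039 over the 6 libraries left out. The count of called genes, 42 of 807, was 68 in DESeq2, 13 in glmTreat against a 1.5-fold change, 17 at an adjusted p of 0.01, 76 without both libraries numbered 1 and 17 to 55 with a library left out (17 and 18 without control 2 or 3, 26 and 22 without parthenote 2 or 3). Flanking genes called were 1, but 3 without a filter and without both libraries numbered 1, 4 in DESeq2, and 1 to 2 with a library left out (SLC25A13 joined without parthenote 1); the cause was not tested. Adding the replicate number as a block called 55 genes and 3 flanking genes, and the block changed no call of a member. The difference in the log2 ratio of PEG10 to SGCE reads was -5.85 to -4.51 with a library left out. The settings chosen after seeing the data were the authors' normalized values, scaling without the most abundant gene and PEG10, and leaving out both libraries numbered 1. CALCR had the fewest reads of the members, 142 over the 6 libraries.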
